A study of Mus musculus with 16 samples.

Results

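The genes described here are 9 members of the sugar pathways of the small intestine, namely 4 of glucose production (Pck1, G6pc, Fbp1 and Slc37a4), 3 hexose transporters (Slc5a1, Slc2a2 and Slc2a5) and 2 enzymes of fructose breakdown (Khk and Tkfc). They form a list of names, drawn up with earlier results of these data known, and are 9 of the 41740 gene names in each count table. All 9 passed the filter on low counts, as did 15267 of the 22872 genes counted in any library. They were measured by RNA sequencing of the whole wall of the ileum in 16 male STAM mice, a model of diabetes with fatty liver disease and liver cancer. STAM mice on the C57BL/6J background received 200 µg of streptozotocin, a toxin of the insulin-producing beta cell, at 2 days of life were fed a high-fat diet beginning at 4 weeks, and were studied at 20 weeks.

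The Control-STAM-nonINS group (n = 4) had the genotype Vilin-Cre(-); InsR-flox and received normal saline. Mice of the Control-STAM-INS group (n = 6) had the same genotype and received the long-acting insulin degludec, injected 2 times a day from 6 weeks of age at doses raised up to 12 U/kg. The ieIRKO-STAM-INS group (n = 6) was labelled Vilin-Cre(+); InsR-flox and received the same insulin. All 3 groups therefore carried the floxed allele of the insulin receptor gene, streptozotocin and the high-fat diet, and none was a healthy or a Cre-only control. The Villin promoter drives Cre in the intestinal epithelium, so muscle, vessels, nerves and immune cells of the wall keep the receptor. Each library was labelled as a separate biological replicate.

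Glucose can be made in the gut from lactate, amino acids and glycerol. Pck1 and Fbp1 catalyse committed steps of this route, and the G6pc enzyme, fed by the Slc37a4 carrier, releases free glucose from glucose 6-phosphate in the endoplasmic reticulum. Enterocytes absorb dietary glucose through the sodium-coupled transporter Slc5a1 (SGLT1) and fructose through Slc2a5 (GLUT5), and pass sugars on to the blood through Slc2a2 (GLUT2). Absorbed fructose is phosphorylated by ketohexokinase (Khk), and after it is split its glyceraldehyde is fed into glycolysis by triokinase (Tkfc). In liver, insulin lowers transcription of Pck1 and G6pc. The comparisons asked how these genes differed with insulin treatment and whether mice labelled as lacking the epithelial receptor differed from controls under the same treatment.

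The depth was between 13288018 and 22215382 counted reads per library. Levels are given as CPM, counts per 1000000 reads after TMM scaling of library sizes, and the mean is followed by the SD over mice. A change is called where the adjusted p of edgeR's quasi-likelihood test, corrected over all 15267 tested genes, was under 0.05. Insr, the targeted gene (chromosome 8, 3122061 to 3279617 of GRCm38), had 105 ± 12.3 CPM (n = 4) in Control-STAM-nonINS, 62.7 ± 10.1 (n = 6) with insulin in Control-STAM-INS, and 67.2 ± 13.4 (n = 6) where the label was ieIRKO-STAM-INS. Insr was called lower with insulin without overlap (log2 fold change -0.75, adjusted p = 0.00276), and lower in ieIRKO-STAM-INS than without insulin (log2 fold change -0.65, adjusted p = 0.00582). The knockout label did not go with less Insr than Control-STAM-INS had (log2 fold change 0.10, 95% confidence interval -0.16 to 0.37, adjusted p = 0.805), so these counts give no check of the knockout, and the deleted part of the gene cannot be read apart from the rest. The ileal markers Fabp6, a bile acid binding protein, and Slc10a2, the apical bile acid transporter, had means of 4374 to 6588 and 841 to 1413 CPM over the 3 groups. The 10 epithelial markers, such as Vil1 and Epcam, summed to medians of 16982 CPM in Control-STAM-nonINS, 17483 CPM in Control-STAM-INS and 16261 CPM for ieIRKO-STAM-INS. Of 6 pancreatic acinar markers, 4 were at 0 in every library and none passed the filter. The 6 B and plasma cell markers summed to 959 to 1541 CPM in Control-STAM-INS but to 1655 to 3115 CPM where ieIRKO-STAM-INS was the label, without overlap, and were mostly the plasma cell gene Jchain. The B cell genes Cd79a, Cd79b and Ms4a1 stood apart in ieIRKO-STAM-INS replicates 2 and 3, with sums of 270.0 and 170.3 CPM against 15.5 to 47.2 CPM in the other 14 libraries.

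Pck1 and Fbp1 showed the largest called differences of the set. In Control-STAM-INS, Pck1 was 9.40-fold and Fbp1 5.12-fold lower than in Control-STAM-nonINS, and Khk and Slc37a4 were also called lower, by 1.76-fold and 1.43-fold. All 9 members had a negative log2 fold change with insulin, with a median of -0.81 against -0.0043 over all tested genes. The 4 calls are 44.4% of the members, whereas 10.5% of all tested genes were called in this comparison and 6.76% were called lower. This count rests on single libraries, since it was 1 without Control-STAM-nonINS replicate 4, and 2 without Control-STAM-nonINS replicate 1 or 3 or Control-STAM-INS replicate 3 or 5. The groups did not overlap for 5 members, those called and Slc2a2, which is 55.6% of the members against 10.6% of all tested genes. With ieIRKO-STAM-INS replicates 2 and 3 left out of the common fit, 3 members were called, since the adjusted p of Pck1 was then 0.0539. When ieIRKO-STAM-INS was compared with Control-STAM-INS, edgeR called none of the 9 (0 at an unadjusted p under 0.05, and 0 with DESeq2), and none had groups without overlap. In that comparison 0.223% of all tested genes were called and 0.845% had groups without overlap. The members' median log2 fold change was 0.39 against 0.017 over all tested genes, with 7 positive and 2 negative values.

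**Figure D1:**
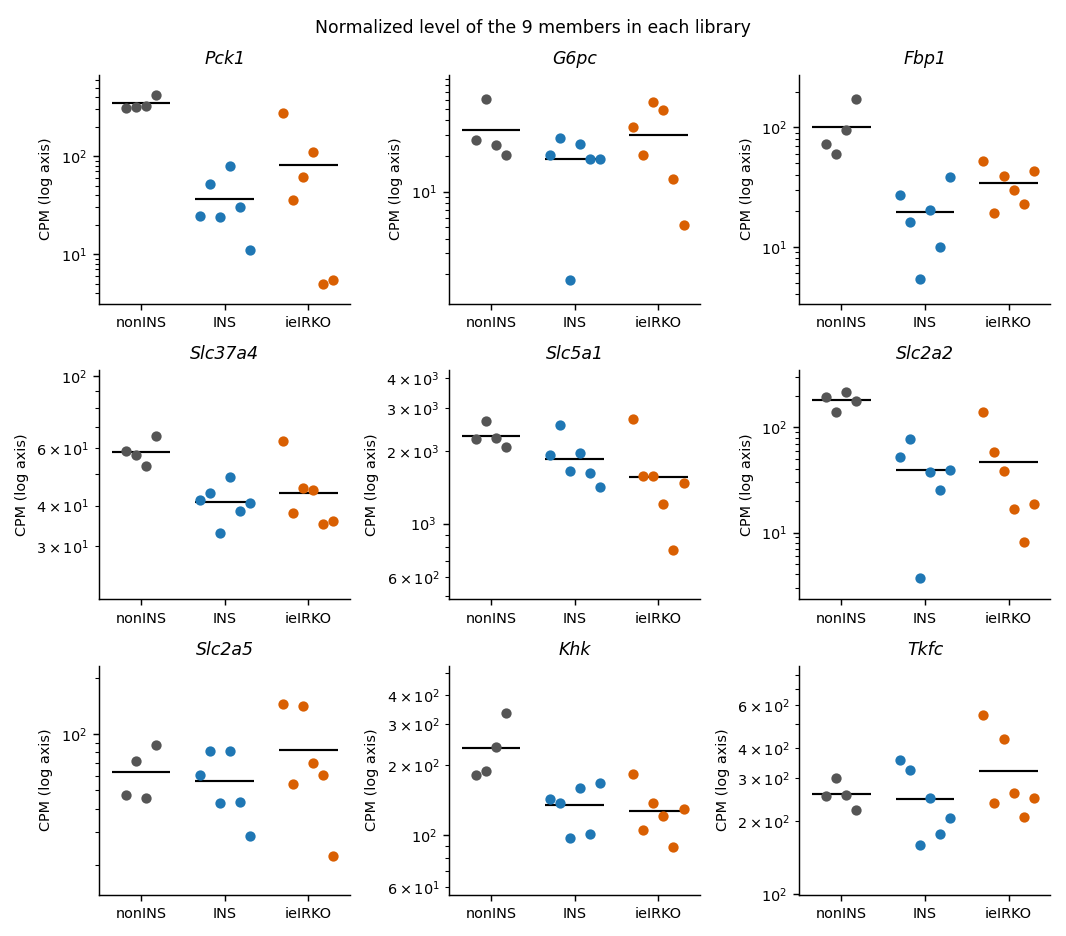
Level of each member in CPM on a log axis, 1 point per library, for Control-STAM-nonINS (nonINS, n = 4), Control-STAM-INS (INS, n = 6) and the libraries labelled ieIRKO-STAM-INS (ieIRKO, n = 6), with a bar at the mean. For Pck1, the 4 points without insulin lie from 312 to 424 CPM, above the highest point of either insulin-treated group, at 274 CPM, and the ieIRKO-STAM-INS points spread from 4.98 to 274 CPM.

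Bases before the transcription start are shown for the 3 genes with the largest differences with insulin, Pck1, Fbp1 and Slc2a2, each of which was lower in all 6 Control-STAM-INS libraries than in all 4 without insulin. The sequences are those of RefSeq on build GRCm38.p6, 200 bases each, 5′ to 3′ on the strand of the gene. Pck1 is read from chr2:173152873-173153072 on the plus strand, Fbp1 from chr13:62888283-62888482 on the minus strand and Slc2a2 from chr3:28697703-28697902 on the plus strand. Capitals mark matches, on either strand, to 8 motifs that were searched by their letters.

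Pck1: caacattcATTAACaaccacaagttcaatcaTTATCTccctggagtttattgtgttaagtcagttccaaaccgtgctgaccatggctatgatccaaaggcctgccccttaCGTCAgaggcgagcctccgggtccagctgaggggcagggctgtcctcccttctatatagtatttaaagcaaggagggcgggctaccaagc
Fbp1: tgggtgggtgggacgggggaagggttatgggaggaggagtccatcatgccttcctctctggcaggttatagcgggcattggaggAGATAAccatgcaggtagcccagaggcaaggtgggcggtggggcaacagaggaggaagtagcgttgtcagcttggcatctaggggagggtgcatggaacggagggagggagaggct
Slc2a2: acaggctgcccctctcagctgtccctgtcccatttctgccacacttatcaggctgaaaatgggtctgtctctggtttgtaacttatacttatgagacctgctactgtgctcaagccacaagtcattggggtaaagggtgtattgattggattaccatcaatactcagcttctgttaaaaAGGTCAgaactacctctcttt

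The Pck1 window holds GTTAAT (the half-site of HNF1) at bases 192 to 187 before the start, AGATAA at bases 169 to 164 and TGACG (the half-site of the cAMP response element) at bases 90 to 86, all on the strand opposite to the gene. AGATAA is the motif of a family of zinc-finger factors that includes Gata4. The end of this window overlaps the first exon in GENCODE, which starts upstream of the RefSeq start. Fbp1 holds AGATAA at bases 116 to 111, and Slc2a2 holds AGGTCA (the half-site of nuclear receptors) at bases 21 to 16. No match is shared by all 3 windows. For Khk, 30 bases around its matches, chr5:30921475-30921504 on the plus strand, lie inside an exon of another annotated Khk transcript.

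Khk: cagcgttcccCGTCACGTGacaccGTTAAT

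In these 30 bases TGACG on the opposite strand overlaps CACGTG, the E-box read by Mlxipl (ChREBP) and other factors, by 2 bases, and GTTAAT follows at bases 60 to 55 before the start. Of 32851 RefSeq windows of the same length, 15.7% hold TGACG, 11.4% hold AGGTCA, 7.80% hold AGATAA, 5.26% hold CACGTG and 5.06% hold GTTAAT. Among the 9 members, CACGTG is also in the Slc5a1 window. Those of Slc37a4 and G6pc hold AGGTCA, and that of Slc37a4 holds TGACG too. The full cAMP response element TGACGTCA was searched as well and is in 1.47% of the windows. The FOXO motif TGTTTAC is in 2.51% and the caudal motif TTTATG is in 8.51%. None of these exact strings is in a window of the members. Variants of each motif were not searched, so an absent string does not show that a window lacks such an element. A match of letters is a description of the sequence and was not tested as a binding site.

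Pck1, the cytosolic phosphoenolpyruvate carboxykinase, converts oxaloacetate to phosphoenolpyruvate (chromosome 2, 173153048 to 173159273). Its level was 312, 318, 326 and 424 CPM in Control-STAM-nonINS. With insulin (Control-STAM-INS) it ran from 11.0 through a median of 27.3 to 79.9 CPM, so that all 6 insulin-treated libraries lay below all 4 without insulin. This was a log2 fold change of -3.23 (95% confidence interval -5.15 to -1.31, adjusted p = 0.0351), with means of 345 ± 52.9 and 36.8 ± 24.9 CPM. On log2 CPM, the exact permutation test (two-sided) had p = 0.00476, the smallest that 4 against 6 libraries can give. The adjusted p rose above 0.05 in 8 of 16 fits without 1 library, up to 0.0714 without Control-STAM-nonINS replicate 4, while the log2 fold change stayed between -3.62 and -3.04. The call was also lost in 3 of the 9 other alternatives, for example at an adjusted p of 0.0560 with no filter on low counts. The highest adjusted p among the 9 was 0.0953, with a block for the replicate number. Their log2 fold changes ran from -3.46 to -2.53.

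In the libraries labelled ieIRKO-STAM-INS, Pck1 ran from 4.98 through a median of 48.0 to 274 CPM, the widest spread of any member in any group (coefficient of variation 125%). Replicate 1 had 274 CPM and replicates 5 and 6 had 4.98 and 5.46 CPM, below the lowest Control-STAM-INS library. The log2 fold change against Control-STAM-INS was 1.15 (95% confidence interval -0.57 to 2.87, adjusted p = 0.626). Without replicate 1 it was 0.23, and the exact permutation p over all libraries was 0.857. All 6 libraries still lay below the 4 without insulin, at a log2 fold change of -2.08 that did not pass (adjusted p = 0.125). Without replicate 1 this value was -3.00 (adjusted p = 0.0277), the only 1 of 16 fits without 1 library that passed.

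Fbp1, fructose 1,6-bisphosphatase, removes a phosphate in a step that opposes phosphofructokinase (chromosome 13, 62864753 to 62888282). Its level was 73.0, 60.4, 95.7 and 174 CPM in Control-STAM-nonINS. With insulin (Control-STAM-INS) it ran from 5.33 through a median of 18.3 to 38.2 CPM, again with no overlap. Its log2 fold change was -2.35 (95% confidence interval -3.34 to -1.37, adjusted p = 0.00595). This call held in all 16 fits that left out 1 library, with adjusted p-values from 0.00433 to 0.0243, and in the 9 other alternatives.

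The libraries labelled ieIRKO-STAM-INS had 19.1 to 52.8 CPM of Fbp1, with a median of 34.5 CPM. The log2 fold change against Control-STAM-INS was 0.81 (95% confidence interval -0.10 to 1.71, adjusted p = 0.505; exact permutation p = 0.0584), and 3 of the 6 libraries lay above all of Control-STAM-INS. Against Control-STAM-nonINS, Fbp1 was 2.92-fold lower without overlap (log2 fold change -1.55, adjusted p = 0.0381). That call was lost in 8 of 16 fits without 1 library, with an adjusted p of up to 0.121 without Control-STAM-nonINS replicate 4, and in 3 of the 9 other alternatives, at 0.0527 with scaling to the epithelium markers, 0.0645 with no filter on low counts and 0.122 without the ieIRKO-STAM-INS replicates 2 and 3.

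Slc37a4, the glucose 6-phosphate carrier of the endoplasmic reticulum, had the smallest spread of the set (chromosome 9, 44396852 to 44402968). It had 58.7, 57.1, 53.0 and 65.3 CPM in Control-STAM-nonINS and 32.9 to 48.9 CPM, with a median of 41.1, in Control-STAM-INS. The groups did not overlap, at a log2 fold change of -0.51 (95% confidence interval -0.81 to -0.22, adjusted p = 0.0270). The adjusted p rose above 0.05 in 4 of 16 fits without 1 library, up to 0.0830 without Control-STAM-nonINS replicate 4. It was also above 0.05 in 1 of the 9 other alternatives, at 0.0535 with a block for the replicate number. Its level was 35.1 to 63.3 CPM for ieIRKO-STAM-INS, and the log2 fold change against Control-STAM-INS was 0.09 (95% confidence interval -0.18 to 0.36, adjusted p = 0.829).

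G6pc, the catalytic subunit of glucose 6-phosphatase, was the member with the fewest counts, 30 to 938 per library (chromosome 11, 101367561 to 101377903). Its level was 27.3, 61.1, 24.9 and 20.2 CPM in Control-STAM-nonINS and ran from 1.80 through a median of 19.5 to 28.5 CPM in Control-STAM-INS. The groups overlapped, and the log2 fold change of -0.82 was not called (95% confidence interval -2.21 to 0.57, adjusted p = 0.470). Without Control-STAM-INS replicate 3, the library with 30 counts, it was -0.58. In ieIRKO-STAM-INS the level was 5.17 to 57.8 CPM, 0.67 above Control-STAM-INS on the log2 scale (95% confidence interval -0.60 to 1.94, adjusted p = 0.705). The intervals of G6pc span both a fall and a rise, so no difference was detectable at this spread.

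Slc2a2 encodes GLUT2, the low-affinity hexose carrier (chromosome 3, 28697903 to 28731359). It had 196, 139, 220 and 180 CPM in Control-STAM-nonINS and from 3.71 through a median of 38.5 to 78.3 CPM in Control-STAM-INS. All 6 libraries with insulin lay below all 4 without it. The log2 fold change of -2.22 (95% confidence interval -3.79 to -0.65) had an adjusted p of 0.0692 and was not called, and the exact permutation test gave p = 0.00952. The adjusted p was under 0.05 in 3 of 9 other analyses, at 0.0226 with DESeq2, 0.0222 with the likelihood ratio test and 0.0493 with only the groups compared. It was also under 0.05 in 2 of 16 fits without 1 library, at 0.0396 without ieIRKO-STAM-INS replicate 1.

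In the libraries labelled ieIRKO-STAM-INS, Slc2a2 ran from 8.18 through a median of 28.7 to 141 CPM. The log2 fold change against Control-STAM-INS was 0.24 (95% confidence interval -1.18 to 1.67, adjusted p = 0.916) and changed to -0.50 without replicate 1. Against Control-STAM-nonINS it was -1.98 and not called (adjusted p = 0.0857), with 5 of the 6 libraries below all 4. Without replicate 1 it was -2.72 (adjusted p = 0.0181), the only 1 of 16 fits without 1 library that passed.

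Slc5a1, the sodium-coupled glucose transporter of the brush border, had 2244, 2666, 2267 and 2083 CPM in Control-STAM-nonINS (chromosome 5, 33104219 to 33162870). It had 1423 to 2568 CPM in Control-STAM-INS and 777 to 2706 CPM in ieIRKO-STAM-INS. With insulin the log2 fold change was -0.32 (95% confidence interval -0.82 to 0.19, adjusted p = 0.445), with 5 of 6 libraries below all 4 without insulin. From Control-STAM-INS to ieIRKO-STAM-INS it was -0.26 (95% confidence interval -0.72 to 0.20, adjusted p = 0.686).

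Slc2a5, the fructose transporter, had 47.4, 71.7, 45.8 and 87.4 CPM in Control-STAM-nonINS. It ran from 28.4 to 81.2 CPM in Control-STAM-INS and from 22.2 to 145 CPM in ieIRKO-STAM-INS (chromosome 4, 150119283 to 150144169). Its groups overlapped in every comparison. With insulin the log2 fold change was -0.17 (95% confidence interval -1.13 to 0.79, adjusted p = 0.861) and 0.54 from Control-STAM-INS to ieIRKO-STAM-INS (95% confidence interval -0.32 to 1.41, adjusted p = 0.647).

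Khk, which traps fructose as fructose 1-phosphate, had 182, 188, 239 and 335 CPM in Control-STAM-nonINS (chromosome 5, 30921431 to 30931248). With insulin it had 97.2 to 168 CPM, with a median of 140, below every library without insulin. Its log2 fold change was -0.81 (95% confidence interval -1.26 to -0.37, adjusted p = 0.0208). The call was lost without Control-STAM-nonINS replicate 4 (log2 fold change -0.60, adjusted p = 0.0887) and without replicate 3 (adjusted p = 0.0510). Khk had 88.7 to 183 CPM under the knockout label, and its log2 fold change from Control-STAM-INS was -0.08 (95% confidence interval -0.48 to 0.33, adjusted p = 0.904). Against Control-STAM-nonINS it was 1.85-fold lower (log2 fold change -0.89, adjusted p = 0.0107), and this call held in all 16 fits without 1 library.

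Tkfc, triokinase, which phosphorylates the glyceraldehyde made from fructose, had 253, 302, 256 and 221 CPM in Control-STAM-nonINS (chromosome 19, 10587791 to 10605654). It had 159 to 357 CPM in Control-STAM-INS and 208 to 546 CPM in ieIRKO-STAM-INS, and the groups overlapped throughout. With insulin the log2 fold change was -0.07 (95% confidence interval -0.66 to 0.52, adjusted p = 0.909) and 0.39 from Control-STAM-INS to ieIRKO-STAM-INS (95% confidence interval -0.14 to 0.92, adjusted p = 0.587). Its exons share 596 bases with Cyb561a3 and 328 bases with Ddb1 on the opposite strand. The library kit keeps strand, but whether the counting used it is not given in the sources used here, so reads of these stretches may not be assigned with certainty.

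**Figure D2:**
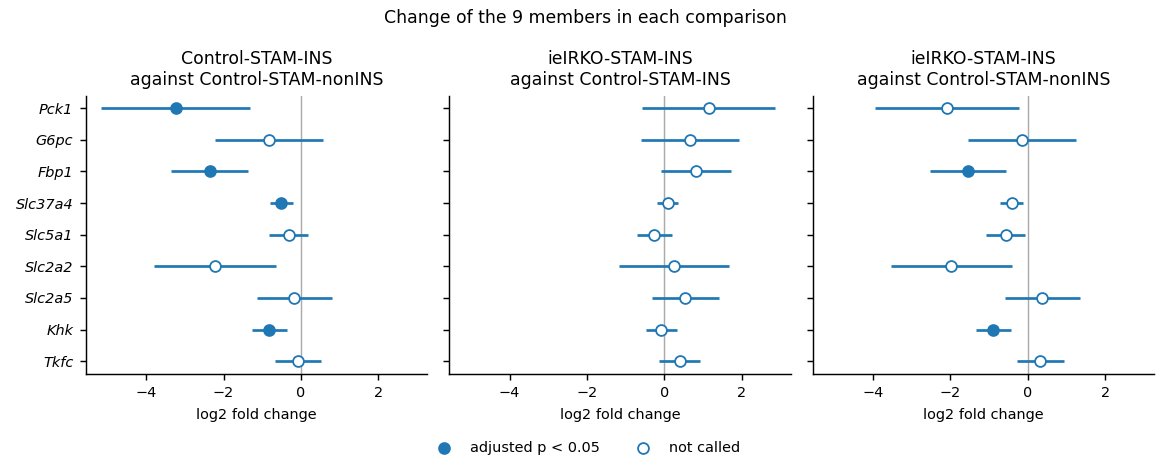
Log2 fold change of each member in the 3 comparisons, with lines for the 95% confidence interval; filled points have an adjusted p under 0.05 in edgeR. Filled points are Pck1, Fbp1, Slc37a4 and Khk in the left panel, none in the middle panel, and Fbp1 and Khk in the right panel.

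The comparison of the ieIRKO-STAM-INS libraries with those of Control-STAM-nonINS shares libraries with the other comparisons and is set beside them as values only. Fbp1 and Khk were called lower, which is 22.2% of the members, whereas 13.3% of all tested genes were called and 7.59% were called lower. Pck1 and Fbp1 had groups without overlap, against 8.56% of all tested genes. The median log2 fold change of the members was -0.58, and 7 of 9 were negative. The count of called members rose from 2 to 6 without ieIRKO-STAM-INS replicate 1, by adding Pck1, Slc37a4, Slc5a1 and Slc2a2. Without replicates 2 and 3 of ieIRKO-STAM-INS, in which B cell genes stood apart, Khk alone was called. Markers also moved in this comparison. By edgeR, 2 of the 5 tested markers of the proximal small intestine were called lower (Fabp1, log2 fold change -2.26, and Cybrd1, -0.87), as was 1 of 5 of the distal part (Fabp6, -0.59). Of the 6 B and plasma cell markers, 3 were called higher (Jchain 0.87, Mzb1 1.29 and Cd79a 1.86), and DESeq2 called all 6. The part of these cells and positions in the members' values was not tested.

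Levels of different genes were compared per kb of their annotated exons. Slc5a1 was highest in every group, at 564 ± 60.4 CPM per kb without insulin, 453 ± 97.8 in Control-STAM-INS and 378 ± 157 among the libraries labelled ieIRKO-STAM-INS, and its range did not overlap that of Khk, the next gene, at 131, 74.8 and 70.9 CPM per kb in the same order of groups. Without insulin, the order by mean went on with Pck1 (101 CPM per kb), Fbp1 (59.1), Tkfc (55.9), Slc2a2 (31.9), Slc37a4 (20.5), Slc2a5 (18.5) and G6pc (13.8). Of these neighbours, only Tkfc and Slc2a2, and Slc2a2 and Slc37a4, had ranges without overlap. With insulin, Tkfc (53.2) came after Khk, and then Slc2a5 (16.5), Slc37a4 (14.4), Fbp1 (11.5), Pck1 (10.7), G6pc (7.81) and Slc2a2 (6.87), all overlapping their neighbours after Slc2a5. In ieIRKO-STAM-INS the order began in the same way with Slc5a1, Khk, Tkfc and Slc2a5, and Slc2a2 was again last by mean.

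**Figure D3:**
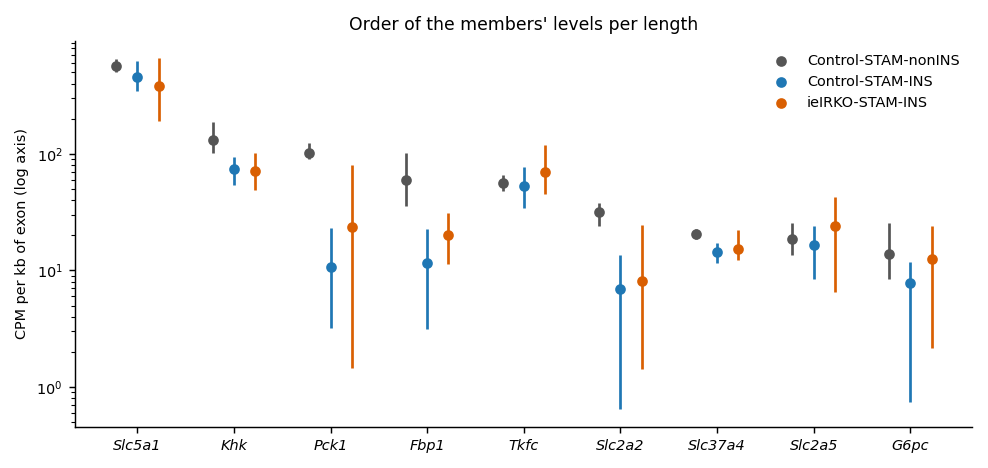
Mean level of each member per kb of annotated exon, on a log axis, with lines from the lowest to the highest library of each group (n = 4, 6 and 6). Slc5a1 is highest in each group, and Pck1 has means of 101 CPM per kb without insulin (Control-STAM-nonINS), 10.7 with insulin (Control-STAM-INS) and 23.8 for ieIRKO-STAM-INS.

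Single libraries were high or low for several members at once. ieIRKO-STAM-INS replicate 1 was the highest of its group for 8 of 9 members, G6pc excepted, and replicate 5 was the lowest for 6. In Control-STAM-INS, replicate 3 was the lowest for 6 members, G6pc, Fbp1, Slc37a4, Slc2a2, Khk and Tkfc. In Control-STAM-nonINS, replicate 4 was the highest for Pck1, Fbp1, Slc37a4, Slc2a5 and Khk and the lowest for G6pc, Slc5a1 and Tkfc. The summed enterocyte markers, such as Alpi and Sis, ran from 22077 to 36050 CPM in Control-STAM-nonINS, from 21787 to 36588 CPM across Control-STAM-INS and from 7874 to 37882 CPM over the libraries labelled ieIRKO-STAM-INS. In the last of these groups the sum was lowest in replicate 5 and highest in replicate 1. In Control-STAM-nonINS both this sum and that of the epithelial markers, at 10509 CPM, were lowest in replicate 4. Fewer cells of a type and less RNA per cell cannot be told apart in these bulk samples, and the part of enterocyte content in the members' values was not tested.

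**Figure D4:**
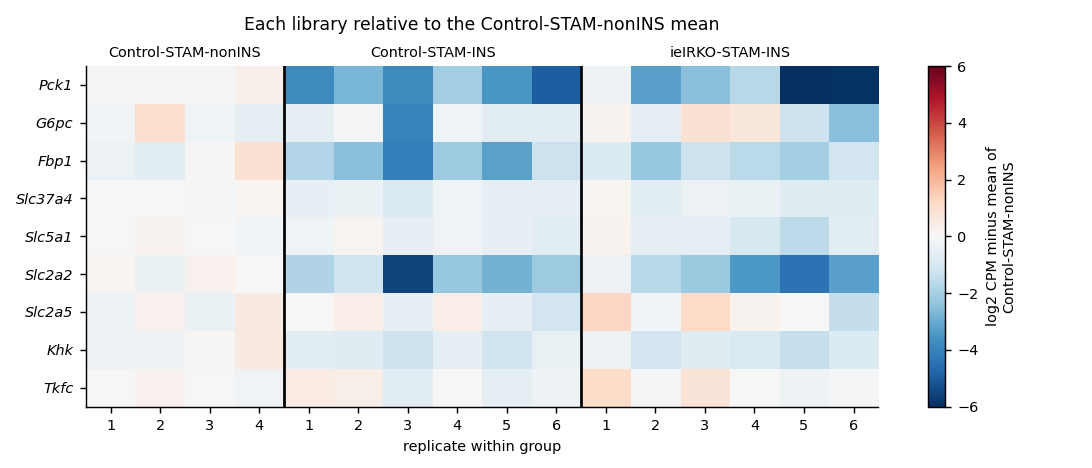
Log2 CPM of each member in each library minus the mean of the 4 Control-STAM-nonINS libraries; columns are libraries in groups and blue is lower. The darkest blue lies in Pck1 of ieIRKO-STAM-INS replicates 5 and 6 and in Slc2a2 of Control-STAM-INS replicate 3, whereas Slc37a4, Slc5a1 and Khk are pale throughout.

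Over the 16 libraries, which share their groups, the log2 CPM of Pck1 and Slc37a4 had Pearson's r = 0.90, and that of Fbp1 and Khk 0.86. On deviations from the group means these were 0.81 and 0.88. Pck1 and Fbp1, the members with the largest differences with insulin, had r = 0.58 over all libraries and 0.11 on deviations from the group means. Among all tested genes, those most like Pck1 were Elmod3 (r = 0.93), Slc6a4, the serotonin transporter (0.92), and Serinc5 (0.92). Those most like Fbp1 were Marc2 (0.95), Mlxipl (0.92), which encodes the sugar-sensing factor ChREBP, and Slc25a13 (0.89), a mitochondrial aspartate-glutamate carrier. Slc37a4 was most like Slc6a4 (0.93), Dgkh (0.91) and Ppl (0.91). Khk was most like Retsat (0.93), a retinol saturase, Ms4a10 (0.93) and Acaa1b (0.93), a peroxisomal thiolase. These genes were picked for their high r over libraries that include the group differences. On deviations from the group means, their r ran from 0.71 (Slc25a13 with Fbp1) to 0.91 (Elmod3 with Pck1).

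The other genes of these routes were read from lists written from general knowledge. Of 22 other gluconeogenic genes, 21 were tested, and edgeR called 1 lower with insulin, the enolase Eno1 (log2 fold change -0.43, adjusted p = 0.0293), with a median of -0.17 for the list. At an unadjusted p under 0.05 there were 9, and DESeq2 called 2, Eno1 and Gpi1. The paralogs Pck2, G6pc3 and Fbp2 were not called. Pck2, the mitochondrial form, had 37.5 and 33.5 CPM without and with insulin (log2 fold change -0.17, adjusted p = 0.402), and G6pc3 had 25.9 and 21.1 CPM (log2 fold change -0.30, adjusted p = 0.0757). Fbp2, the muscle form of the bisphosphatase, had 240 and 207 CPM (log2 fold change -0.22, adjusted p = 0.351), against 101 and 19.6 CPM for Fbp1. Pcx, pyruvate carboxylase, had 28.6 and 44.6 CPM (log2 fold change 0.64, adjusted p = 0.127). Gapdh and Tpi1, among the most abundant genes of the list, were not called and had log2 fold changes of -0.33 and 0.07.

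Of 18 glycolysis genes, 16 were tested, and Hk1, a hexokinase, was called lower (log2 fold change -0.68, adjusted p = 0.00841) and Ldhb, a lactate dehydrogenase subunit, higher (log2 fold change 0.45, adjusted p = 0.0278). The list's median was -0.06, and its most abundant genes, Ldha, Pkm and Pfkp, had log2 fold changes of 0.07, -0.05 and 0.16. Aldoa was not analysed here. None of the 14 tested genes of the other 16 hexose transporters was called by edgeR (3 at an unadjusted p under 0.05), with a median of -0.22, whereas DESeq2 called 1, Slc2a3. Slc5a11, Slc2a9 and Slc5a9, the most abundant of them, had log2 fold changes of -0.30, -0.38 and 0.41.

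Of 11 genes of fructose metabolism and sugar sensing, 10 were tested. Mlxipl fell from 178 to 81.9 CPM without overlap (log2 fold change -1.12, adjusted p = 0.000624), and Mlxip, which encodes the related factor MondoA, fell from 80.1 to 59.0 CPM (log2 fold change -0.44, adjusted p = 0.0113). Aldh1b1 and Txnip were not called, at log2 fold changes of -0.02 and -0.72. Of 15 regulators of gluconeogenic genes, Cebpb was called lower (61.9 to 30.6 CPM, log2 fold change -1.02, adjusted p = 0.00307), and the median was -0.05. Hnf4a, Nr3c1 and Foxo3, the most abundant regulators, had log2 fold changes of 0.09, 0.13 and 0.20 and were not called, and Foxo1 and Ppargc1a had -0.15 and -0.26. With Control-STAM-INS as the reference for ieIRKO-STAM-INS, none of the genes of the 5 lists was called by edgeR (11 at an unadjusted p under 0.05), DESeq2 called 1, the alanine aminotransferase Gpt, and the list medians lay between -0.14 and 0.14.

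**Figure D5:**
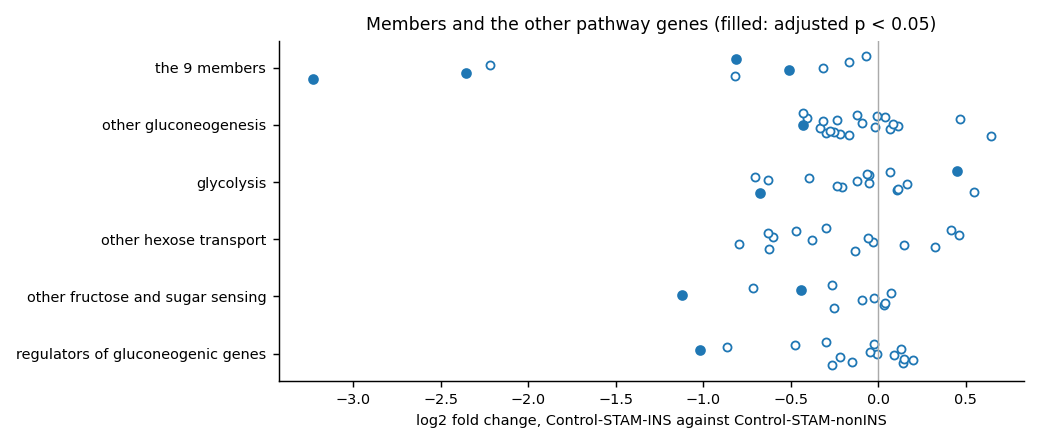
Log2 fold change in Control-STAM-INS against Control-STAM-nonINS, 1 point per tested gene, for the 9 members and the 5 lists of other pathway genes; filled points have an adjusted p under 0.05. Among the lists, the lowest points are Mlxipl at -1.12 and Cebpb at -1.02, and 3 members, Pck1, Fbp1 and Slc2a2, lie below -2.

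Markers of position along the gut were read beside the members. Of 6 markers of the proximal small intestine, 5 passed the filter and 2 were called lower with insulin, Fabp1, a fatty acid binding protein (85.0 to 14.3 CPM, log2 fold change -2.58, adjusted p = 0.0117), and Cybrd1, a duodenal iron reductase (4.75 to 2.68 CPM, log2 fold change -0.83, adjusted p = 0.0441). The 5 went both ways, with 2 positive and 3 negative log2 fold changes, and their median of -0.83 is the value of Cybrd1. Gata4 had 0.03, and Lct, the brush border lactase, had -1.81, and neither was called (adjusted p = 0.979 and 0.223). The sum of the list is mostly Cubn, the cubilin receptor (log2 fold change 0.0082), and so says little about the other markers listed. It ran from 526 to 1098 CPM without insulin, from 540 to 812 CPM across Control-STAM-INS and from 154 to 1052 CPM over ieIRKO-STAM-INS. None of 5 markers of the distal small intestine was called with insulin by edgeR (1 at an unadjusted p under 0.05) or by DESeq2. The 1 was Osr2, which was higher with insulin without overlap (log2 fold change 0.37, adjusted p = 0.118). This list also went both ways, with 2 positive and 3 negative values. Of the 10 epithelial markers, Krt18 was called lower (log2 fold change -0.50, adjusted p = 0.0169), and none of 10 enterocyte markers was called (1 at an unadjusted p under 0.05, 0 with DESeq2). That 1 was Sis, sucrase-isomaltase, which had 5242 CPM without and 2543 CPM with insulin, without overlap (log2 fold change -1.04, adjusted p = 0.104). Liver markers summed to 10.2 to 173 CPM and adipocyte markers to 72.7 to 457 CPM over all libraries. The highest liver sum, in ieIRKO-STAM-INS replicate 6, was mostly Tat, at 167 CPM, and Alb was at 8.36 CPM or less in every library. Among the adipocyte markers Lipe and Cidec had the highest means in each group, whereas Adipoq had means of 6.04 to 8.72 CPM. With insulin none of either list was called by edgeR (1 liver and 0 adipocyte markers at an unadjusted p under 0.05), and DESeq2 called 1 liver marker, Cyp2e1. Whether the position of the sampled piece of ileum had a part in the members' values was not tested.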

How the data were processed

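Libraries of ileal RNA, made with a directional kit, came from 4 Control-STAM-nonINS mice, 6 of Control-STAM-INS and 6 labelled ieIRKO-STAM-INS. The authors aligned reads to GRCm38 (mm10) in CLC Genomics Workbench and deposited raw counts per gene, not normalized. The strand setting, the handling of multiply mapped reads and the annotation are not given in the sources used here. All 16 tables were matched to groups by their labels.

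Counts were analysed with edgeR 4.0.16 in R 4.3.3 (filterByExpr with a minimum count of 10 and total of 15, TMM, robust quasi-likelihood fit of 3 groups). P-values were adjusted by Benjamini and Hochberg over 15267 genes. The standard error is the log2 fold change divided by the root of F, with 95% intervals from the t distribution. Log2 CPM used a prior count of 2. Exact two-sided permutation tests enumerated 210 or 924 arrangements. Per-kb levels used the summed exons of GENCODE M21, which held 97.5% of the gene names. Promoters are RefSeq sequences, matched by symbol for 9 of 9 members; Slc37a4 has 3 windows. Named genes were the members, Insr, every called gene of the pathway lists in either of the first 2 comparisons with up to 3 of the most abundant others per list, the 3 genes best correlated with each called member, and markers of reported lists; some genes that this rule names are not reported here. Other genes, such as paralogs, were chosen after their values were seen. The members and lists were chosen with earlier results of these data known.

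Replicate numbers recur across groups, and the deviations of same-numbered libraries had correlations of -0.094 to 0.18 over 14 pairs, of which 4 and not all were over 0.1, so the numbers were not taken to pair the libraries and the reported fit has no block. No 2 libraries were identical. Alternatives were DESeq2 1.42.0, upper-quartile or epithelial-marker scaling, other filters, the likelihood ratio test, only the groups compared, the replicate block and leaving out libraries; leaving out 2 libraries together was chosen after seeing the data. Intervals reflect differences between mice together with counting error. Figures were drawn with matplotlib 3.10.9.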

Additional observations from a re-analysis of the deposited data

Results flagged for a closer look

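In 30 groups of values (9 members and Insr in 3 groups), a single library stood far from the rest of its group in 3, where about 1.5 would be flagged by chance. Each gap is given as a share of the group's whole range in log2 CPM. Pck1 was high in Control-STAM-nonINS replicate 4, at 424 CPM, with a gap of 0.853. G6pc was low in Control-STAM-INS replicate 3, at 1.80 CPM from 30 counts, with a gap of 0.844. Slc2a2 was low in the same library, at 3.71 CPM from 62 counts, with a gap of 0.629.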

How the results depend on the processing

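With insulin, between 1 and 5 of the 9 members were called when 1 library was left out, 1 being the count without Control-STAM-nonINS replicate 4 and 2 that without Control-STAM-nonINS replicate 1 or 3 or Control-STAM-INS replicate 3 or 5. With the replicate block the count was 2, as Pck1 (adjusted p = 0.0953) and Slc37a4 (0.0535) were not called, and Pck1 was not called with no filter on low counts (0.0560). The other alternatives gave 3 to 5. For ieIRKO-STAM-INS the count against the group without insulin, 2 as reported, was 4 with DESeq2 and with the likelihood ratio test, 1 with scaling to the epithelium markers, with no filter and without the 2 libraries whose B cell genes stood apart, and 1 to 6 with 1 library left out, the 6 being without ieIRKO-STAM-INS replicate 1. Against Control-STAM-INS it was 0 in every alternative run. The cause of these changes was not tested.

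No called value changed direction. Values that were not called did so as follows, on the log2 scale. With the replicate block, Slc2a5 had 0.17 and Tkfc 0.077 with insulin, whereas for ieIRKO-STAM-INS Slc2a2 had -0.11 against Control-STAM-INS and G6pc 0.093 against Control-STAM-nonINS. Scaling to the epithelium markers gave Khk 0.033 for ieIRKO-STAM-INS relative to Control-STAM-INS. With 1 library left out, the insulin difference ran from -0.30 to 0.033 for Slc2a5 and from -0.21 to 0.027 for Tkfc. The difference of ieIRKO-STAM-INS from Control-STAM-INS ran from -0.50 to 0.55 for Slc2a2, from -0.045 to 0.15 for Slc37a4, from -0.21 to 0.0072 for Khk and from -0.0026 to 0.16 for Insr, and that from Control-STAM-nonINS ran from -0.45 to 0.32 for G6pc. The low ends of Slc2a2 and Slc37a4 were without ieIRKO-STAM-INS replicate 1. The lowest counts in Control-STAM-INS were 30 of G6pc, 62 of Slc2a2 and 89 of Fbp1, all in replicate 3. The total of that library, 17241544, was above the median of its group.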
